A study of Mus musculus with 19 samples.

Results

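The kinesin superfamily was represented by 37 genes of the 18193 measured in purified cortical projection neurons. They were taken by name, as every gene whose mouse symbol begins with Kif and a digit and which has at least 1 probe set that carries a single gene symbol. Each gene was read from the probe set with the highest mean over the 19 arrays, out of 99 probe sets in all, and 12 of the genes had a single probe set. By their known roles 15 were classed as transport kinesins, 12 as mitotic kinesins and 10 as others.

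Kinesins are motor proteins that walk along microtubules, and in neurons they carry vesicles, mitochondria, RNA granules and receptors from the cell body into the axon and dendrites. Other members of the family act in the mitotic spindle, where they push the poles apart, move chromosomes, shorten microtubules and build the central spindle for cell division. Neurons have left the cell cycle, while the progenitors of the embryonic ventricular and subventricular zones still divide.

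The 9 groups of neurons came from C57BL/6 mice, with no other genotype or treatment named, and their RNA was read on Affymetrix mouse expression arrays. Callosal projection neurons (CPN), whose axons cross to the other hemisphere, and corticospinal motor neurons (CSMN), whose axons run to the spinal cord, were collected at embryonic day 18 (E18) and postnatal days 3, 6 and 14 (P3, P6 and P14). Corticotectal projection neurons (CTPN), which project to the midbrain, were collected at P14. Every group had 2 arrays except CSMN at P3 with 3, and per the series' design text each array was an independent biological collection. Neurons were identified by green fluorescent microspheres taken up by their axons and were then sorted by fluorescence. The labels tie CSMN and CPN to sensorimotor cortex and CTPN to visual cortex, so area and neuron type changed together in each comparison with CTPN. A sorted fraction is a bulk sample, in which fewer cells of a type and less RNA per cell cannot be told apart.

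Values are log2 levels of a probe set, and differences are on that scale with the standard error (SE) of 1 limma model over all arrays. A gene passed the test when its Benjamini-Hochberg adjusted p over all 18193 genes was under 0.05. Array medians lay between 6.42 and 6.62. The files carry no detection calls, so differences between low levels can be understated and levels of different genes were not ranked against each other. The 2 CSMN P14 arrays stood apart from each other: their median gap over the 37 kinesins was 0.621, against 0.095 to 0.382 in the other 8 groups, and 0.647 over all genes. CSMN P14 replicate 2 held the highest or lowest of the 19 values for 13 of 37 kinesins and for 38.4% of all genes, and each other array for 0 to 9 kinesins and 2.06% to 22.9% of all genes. Results that rest on this pair are therefore also given without 1 of its arrays. Of the neuron markers, Bcl11b and Fezf2 of subcerebral neurons lay at 11.35 to 12.62 and 10.12 to 11.57 on the CSMN and CTPN arrays and at 7.19 to 11.15 and 7.997 to 9.41 on the CPN arrays. The upper-layer gene Cux2 lay at 8.44 to 11.13 on the CPN arrays and 5.91 to 9.23 on the others. Slc17a7, the vesicular glutamate transporter of mature projection neurons, ran from 5.74 in CPN at E18 to 10.42 in CSMN at P14.

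Across the 9 groups the mitotic and transport kinesins varied in different ways. The range of a gene's group means had a median of 1.43 in the mitotic class, 1.07 in the transport class and 0.71 in the other class, against 0.86 over all genes. Among mitotic kinesins it ran from 0.24 in Kif14, a kinesin of the late stages of cell division, to 3.48 in Kif22, a motor that binds chromosome arms. Among transport kinesins it ran from 0.42 in Kif13a, a carrier of endosomal cargo, to 2.03 in Kif21a, a kinesin that slows microtubule growth.

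**Figure D1:**
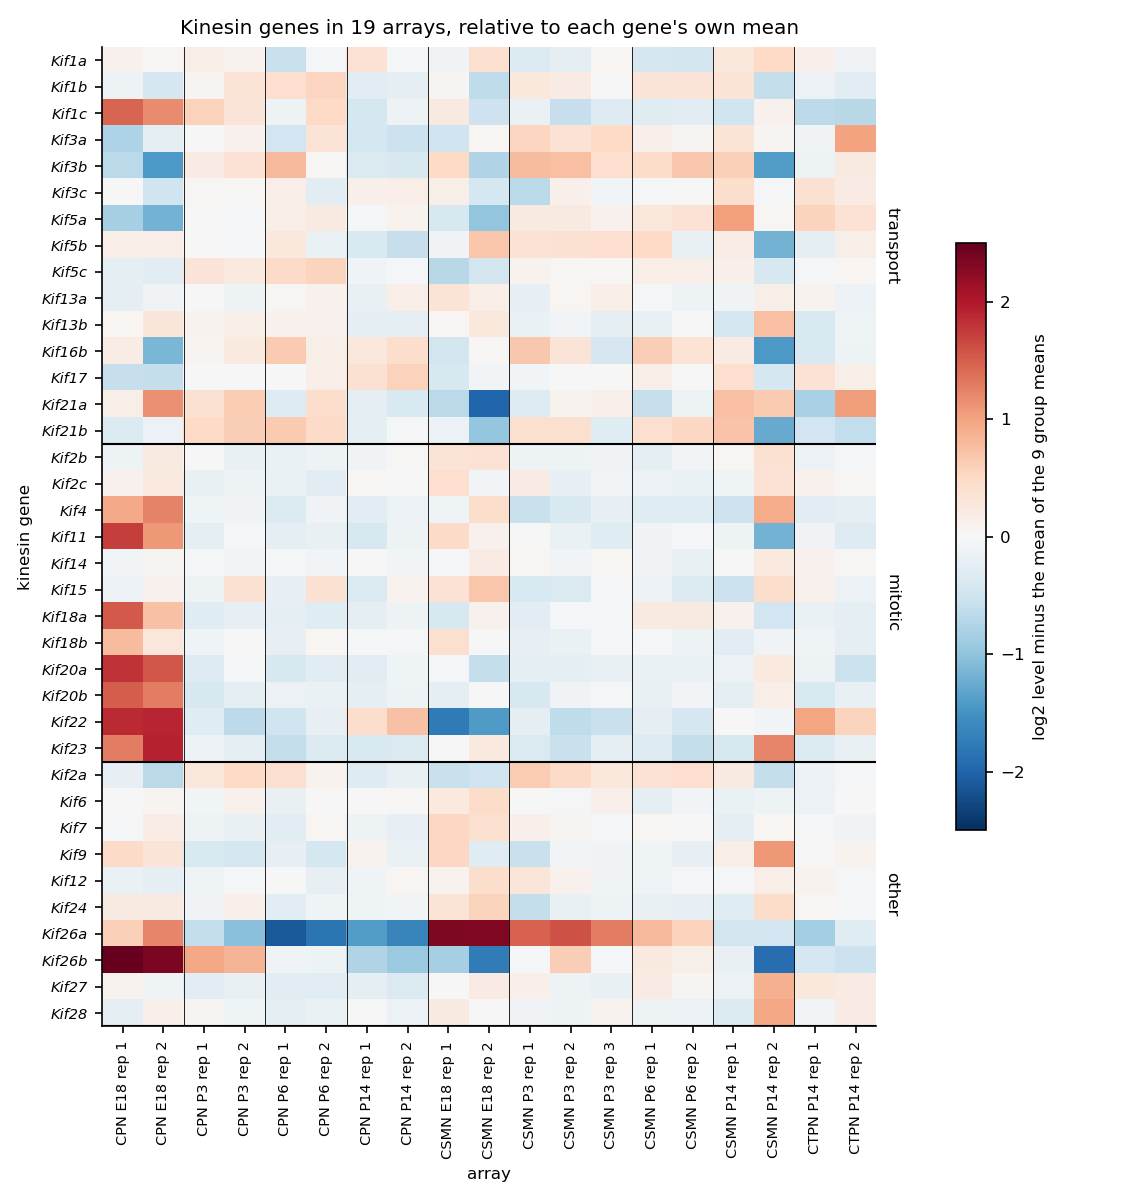
Log2 level of each of 37 kinesins (rows) on each of 19 arrays (columns, by group), minus the gene's mean over the 9 group means; colours end at -2.5 and 2.5, and genes are ordered by class and, within it, by name. Of 12 mitotic kinesins 7 are darker red than elsewhere on both CPN E18 arrays, Kif5a is blue on the E18 arrays, Kif26a is red to blue from E18 to P14 in both types and CSMN P14 replicate 2 differs from replicate 1 for many genes.

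The first question was whether mitotic and transport kinesins separate by neuron type and stage. Both CPN E18 arrays lay above all 17 other arrays for 7 of the 12 mitotic kinesins, against 6.87% of all genes. These were Kif11, Kif18a, Kif20a, Kif20b, Kif22, Kif23 and Kif4. Of the 15 transport kinesins 1 did so, Kif1c, which carries vesicles and dense-core cargo, and of the 10 others 1, Kif26b. The mean level of the 12 mitotic kinesins was 7.19 and 7.24 on the CPN E18 arrays and 6.04 to 6.49 on the other 17 arrays. The mean level of the 15 transport kinesins was 9.10 and 9.20 on the CPN E18 arrays, within the 8.97 to 9.60 of the others.

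**Figure D2:**
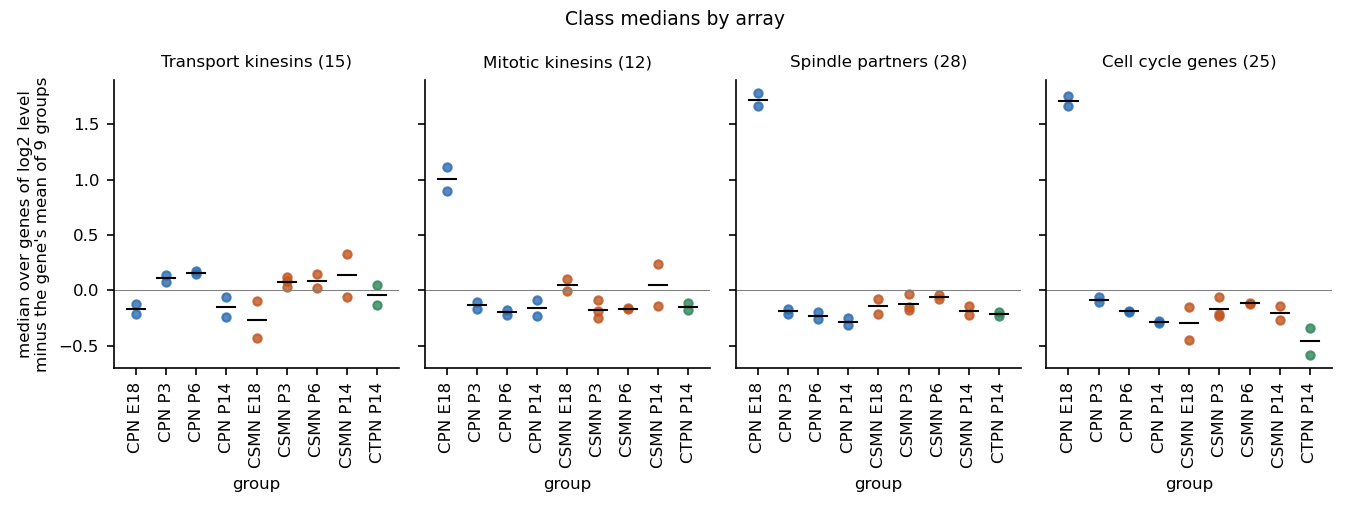
Median over the genes of a class of log2 level minus each gene's mean of 9 groups (vertical axis), by group (horizontal axis); points are arrays, bars are group means, and the panels show transport kinesins, mitotic kinesins, spindle partner genes and cell cycle genes. In the last 3 panels the CPN E18 arrays lie above all other arrays, at 0.90 and 1.11 for the mitotic kinesins against -0.25 to 0.24 for the other 17.

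At E18 the mitotic kinesins were the class with the largest share of differences between the neuron types. Of the 37 kinesins, 10 differed between CSMN and CPN, 1 higher and 9 lower in CSMN, against 12.9% of all genes (3.98% higher and 8.94% lower). The lower ones were 6 of 12 mitotic kinesins, 2 of 15 transport kinesins and 1 of 10 others, and the class medians were -1.02, 0.10 and 0.19, against 0.10 over all genes. The higher one was Kif26a. After quantile normalization the kinesin counts were the same, while the share of higher calls among all called genes was 45.9% in place of 30.8%.

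Kif22 stood at 10.64 and 10.67 on the CPN E18 arrays and at 6.99 and 7.35 on the CSMN E18 arrays, an 11.2-fold lower level in CSMN (-3.48 ± 0.22, adjusted p = 1.78e-07). Kif20a, which recruits the chromosomal passenger complex to the central spindle, was at 6.44 and 6.17 in CPN and 4.60 and 4.03 in CSMN (-1.99 ± 0.22, adjusted p = 2.81e-05). Kif20b, a relative that acts in the last step of cytokinesis, was at 6.59 and 6.36 in CPN and 4.84 and 5.08 in CSMN (-1.51 ± 0.20, adjusted p = 0.00011). In all of these the neuron types did not overlap. That is no further support, since the test used the same arrays, and the share over all genes was not counted. In CSMN the levels of Kif20a and Kif20b were below every array median. The CPN E18 arrays had medians of 6.46 and 6.54. Kif20a lay below the median on both of them, and Kif20b on replicate 2.

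Kif23, the motor of the centralspindlin complex, was at 8.64 and 9.29 in CPN and 7.37 and 7.62 in CSMN (-1.47 ± 0.37, adjusted p = 0.0184). Kif18a, which limits chromosome movement at the metaphase plate, was at 7.14 and 6.34 in CPN and 5.21 and 5.72 in CSMN (-1.27 ± 0.26, adjusted p = 0.00496). Kif11, the motor that slides spindle poles apart, was at 7.96 and 7.31 in CPN and 6.72 and 6.33 in CSMN (-1.11 ± 0.30, adjusted p = 0.0239). The arrays of the 2 types did not overlap for any of these, which again adds no support to a test on the same arrays. Kif4, a chromokinesin, was at 8.09 and 8.38 in CPN and 7.03 and 7.58 in CSMN and did not pass the test. Of the remaining 5, Kif2b, Kif2c, Kif14, Kif15 and Kif18b, none passed. In 4 of the 12 mitotic kinesins the difference was positive, at most 0.55.

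Some of these calls rested on 1 array or 1 probe set. Kif18a did not pass without CPN E18 replicate 1 (-0.87, adjusted p = 0.0737), and Kif11 did not pass without that array (-0.79, adjusted p = 0.209) or CSMN E18 replicate 2 (-0.92, adjusted p = 0.13). Kif23 did not pass without CPN E18 replicate 2 (-1.14, adjusted p = 0.13) or CSMN E18 replicate 1 or 2 (adjusted p = 0.0744 and 0.0515). For Kif20b, Kif23 and Kif18a no other probe set of the gene passed, and the 1 other probe set of Kif18a differed by 0.06 ± 0.18. For Kif20b and Kif23 the differences in the mean of all probe sets were -0.26 and -0.41 (adjusted p = 0.183 and 0.253).

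The probe sets of 3 mitotic kinesins gave further detail. All 3 probe sets of Kif22 were lower in CSMN at E18 by their own test over all probe sets, with differences of -1.25, -3.48 and -2.99. Kif11 was lower in 2 of its 3 probe sets, with the second at -1.49 ± 0.23. The brightest probe set of Kif2c, a microtubule depolymerase of the centromere, had group means of 7.13 to 7.52 in all 9 groups. Another probe set of Kif2c had a group mean of 8.22 in CPN at E18 and 4.76 to 5.58 in the other groups, with a difference of -2.93 ± 0.24 between the types at E18 (limma adjusted p over all probe sets = 2.79e-06). That probe set was singled out after its values were seen. Its ID, and that of the brightest Kif22 probe set, end in _x_at. The array's maker uses this suffix for probes that may bind other transcripts. The 1 Kif22 probe set ending in neither _x_at nor _s_at is the one that differed by -1.25 (adjusted p over all probe sets = 0.0219). Probe sets highest in CPN at E18 were also found in the transport class. For Kif1b, probe sets other than its brightest had group means of 9.50, 8.925 and 6.29 in CPN at E18. In the other groups they lay at 6.49 to 7.12, 4.998 to 6.47 and 5.05 to 5.58. The brightest Kif1b probe set was at 11.53 in CPN at E18 and at 11.52 to 12.29 in the other groups.

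**Figure D3:**
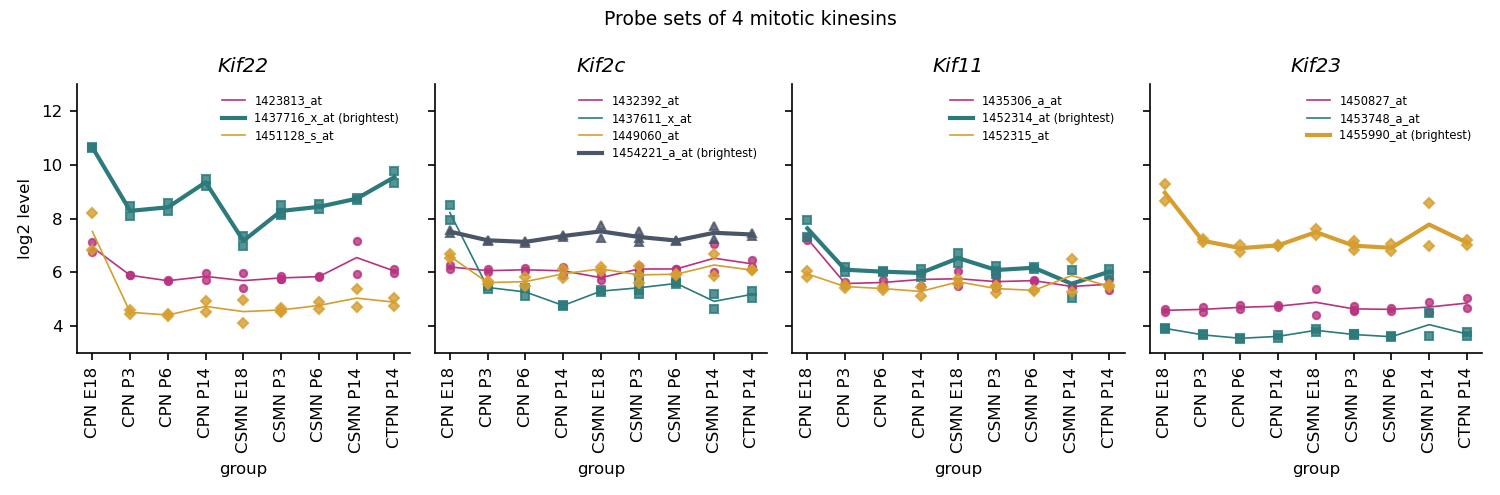
Log2 level (vertical axis) of every probe set of Kif22, Kif2c, Kif11 and Kif23 by group (horizontal axis); points are arrays, lines join group means, and the thick line is the probe set used for the gene. A second probe set of Kif2c and all 3 of Kif22 are highest in CPN at E18, while the 2 other probe sets of Kif23 have group means of 3.53 to 4.88.

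Of 28 spindle partner genes, whose products act with these motors, 22 were lower in CSMN at E18, 1 was higher and 5 did not pass, with a median of -1.74. The cell cycle list had 18 lower members of 25 and a median of -1.52, and 7 members were not called. Over all genes 8.94% were lower and the median was 0.10. Ect2, which the complex of Kif23 recruits to the division plane, differed by -3.64 ± 0.38 (adjusted p = 1.5e-05). Birc5 and Cdca8, members of the passenger complex that Kif20a carries, differed by -3.06 ± 0.21 and -4.23 ± 0.66 (adjusted p = 3.11e-07 and 0.000639), and Nusap1, a spindle microtubule binder, by -3.35 ± 0.24 (adjusted p = 4.83e-07). The partner gene that was higher in CSMN was Tpx2, which targets Kif15 to the spindle (0.87 ± 0.25, adjusted p = 0.0364). The mean level of the spindle partner list was 8.36 and 8.46 on the CPN E18 arrays and 6.48 to 6.80 on the other 17, and that of the cell cycle list was 8.77 and 9.002 against 6.75 to 7.26.

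Markers of other cell types also moved with the CPN E18 arrays. Of 13 neural progenitor genes 11 were lower in CSMN at E18, and the mean level of the list was 10.62 and 10.66 on the CPN E18 arrays against 6.39 to 7.92 on the others. Sox2, Eomes and Fabp7, markers of radial glia and intermediate progenitors, reached 11.62 to 11.85, 10.77 to 11.42 and 13.67 to 13.78 on the CPN E18 arrays. On the CSMN E18 arrays they were at 4.45 to 4.58, 5.30 to 5.31 and 4.86 to 5.89. Over all of the other 17 arrays Sox2 reached 8.59, in CPN at P3, and Eomes lay at 4.80 to 5.31. Fabp7 was at 9.83 to 12.46 on the P3 and P6 arrays of both types, so it was not confined to CPN at E18. The proliferation markers Mki67 and Top2a were at 11.41 to 11.57 and 10.89 to 11.16 in CPN at E18 and at 6.01 to 7.46 and 5.499 to 7.04 on the other 17 arrays.

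Of the glial and vascular lists, 7 of 11 astrocyte genes, 4 of 12 microglia genes and 1 of 11 oligodendrocyte genes were lower in CSMN at E18, and 1 of 9 endothelial genes was higher. Of 12 interneuron genes 4 were lower. The share over all genes was 8.94% lower and 3.98% higher, and the oligodendrocyte and endothelial counts were near it. List means on the CPN E18 arrays and the other 17 were 8.44 and 8.77 against 6.47 to 7.79 for astrocytes and 7.74 and 8.65 against 6.89 to 8.55 for microglia. They were 7.07 and 7.14 against 6.47 to 7.36 for oligodendrocytes, 6.81 and 7.47 against 6.18 to 7.64 for interneurons and 6.34 and 6.55 against 6.10 to 6.75 for endothelial cells. The defining markers Gfap, Mbp, Cx3cr1, Cldn5 and Gad1 ranged from 6.49 to 7.32, 8.31 to 9.995, 6.49 to 8.92, 5.97 to 8.59 and 6.19 to 7.61 over all arrays, and without detection calls none can be read as absent. The part that cells of these types have in the kinesin differences was not tested.

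The mitotic kinesins also shared a promoter feature that the name rule did not use. RefSeq promoters of the mouse build GRCm38.p6, 1 or more for a gene, from 250 bases before to 50 after a start, were searched on both strands for TTTGAA, the core of the cell cycle genes homology region found in many genes expressed in mitosis. It occurred in 9 of the 11 promoters of mitotic kinesins (81.8%), 1 of 13 of transport kinesins (7.69%), 2 of 11 of the others (18.2%) and 17.9% of the 32851 promoters in the table. CCAAT, bound by the factor NF-Y, occurred in 7 of 11, 4 of 13 and 4 of 11, and in 37.4% of all. TTTGAA was in 18 of 25 promoters of spindle partner genes (72%), 7 of 22 of cell cycle genes (31.8%), 1 of 27 of dynein and dynactin genes (3.7%) and 1 of 24 of kinesin light chains and adaptors (4.17%). A match is a description of letters and not a binding site.

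Stretches from 100 bases before to 30 after the start are shown for 6 of the 7 mitotic kinesins whose CPN E18 arrays lay above all others, without Kif20a, with Kif5c and Kif26a as a transport and an unclassed member for contrast. Capitals mark TTTGAA or CCAAT on either strand, so that they may also read TTCAAA or ATTGG, and the 2 motifs do not overlap in these windows.
Kif11, chr19:37376282-37376411, + strand: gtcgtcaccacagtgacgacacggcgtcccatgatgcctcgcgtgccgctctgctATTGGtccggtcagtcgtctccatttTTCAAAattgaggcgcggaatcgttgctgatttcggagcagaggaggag
Kif20b, chr19:34922258-34922387, + strand: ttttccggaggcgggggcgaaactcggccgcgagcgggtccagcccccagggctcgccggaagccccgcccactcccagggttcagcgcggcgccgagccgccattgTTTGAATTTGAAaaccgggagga
Kif22, chr7:127042391-127042520, - strand: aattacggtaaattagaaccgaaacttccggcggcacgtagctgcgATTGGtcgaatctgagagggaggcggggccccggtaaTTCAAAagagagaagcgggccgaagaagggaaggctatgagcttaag
Kif23, chr9:61946770-61946899, - strand: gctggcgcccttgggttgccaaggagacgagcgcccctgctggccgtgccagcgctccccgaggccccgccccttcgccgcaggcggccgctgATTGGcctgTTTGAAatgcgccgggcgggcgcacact
Kif4, chrX:100625965-100626094, + strand: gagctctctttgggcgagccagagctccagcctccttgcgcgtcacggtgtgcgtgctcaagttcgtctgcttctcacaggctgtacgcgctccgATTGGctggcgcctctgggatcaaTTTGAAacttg
Kif18a, chr2:109280638-109280767, + strand: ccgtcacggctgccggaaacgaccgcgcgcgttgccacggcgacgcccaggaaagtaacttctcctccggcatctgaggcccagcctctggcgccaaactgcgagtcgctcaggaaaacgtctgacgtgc
Kif5c, chr2:49619186-49619315, + strand: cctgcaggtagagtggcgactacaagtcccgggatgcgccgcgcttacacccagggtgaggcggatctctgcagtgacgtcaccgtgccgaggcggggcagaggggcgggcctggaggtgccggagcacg
Kif26a, chr12:112146108-112146237, + strand: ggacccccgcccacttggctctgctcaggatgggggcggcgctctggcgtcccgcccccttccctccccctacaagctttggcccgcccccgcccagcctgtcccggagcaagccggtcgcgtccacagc

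In these windows Kif11, Kif22, Kif23 and Kif4 held both motifs, and Kif20b held TTTGAA in tandem. Kif18a, which was also highest in CPN at E18, held neither, nor did Kif5c and Kif26a. In the full promoters searched above, TTTGAA also occurred in the mitotic kinesins Kif14, Kif15, Kif18b and Kif2c. Their CPN E18 arrays, by the probe set used, did not both lie above all others. The motif thus did not separate mitotic kinesins with that pattern from those without it. Kif2b held no TTTGAA. A promoter of the transport kinesin Kif1a, and those of Kif26b and Kif27 among the others, held it but are not shown. The table gave a promoter for 11 of 12 mitotic, 11 of 15 transport and 9 of 10 other kinesins.

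Among the transport kinesins, the conventional kinesin heavy chains Kif5a, Kif5b and Kif5c, which carry mitochondria, vesicles and neurofilaments along axons, were not shown to differ between the neuron types at E18. Kif5a was at 10.93 and 10.57 in CPN and 11.35 and 10.76 in CSMN (0.30 ± 0.27, adjusted p = 0.478). Kif5c, a neuron-specific heavy chain, was at 12.38 and 12.32 in CPN and 11.91 and 12.15 in CSMN (-0.32 ± 0.18, adjusted p = 0.257). Kif1a, the main motor of synaptic vesicle precursors, differed by 0.09 ± 0.23 (adjusted p = 0.819) and Kif3a, a subunit of heterotrimeric kinesin, by 0.27 ± 0.33 (adjusted p = 0.614). For Kif5a, Kif1a and Kif3a the arrays of the types overlapped. Kif2a, which was not classed with either, differed by -0.09 ± 0.25 (adjusted p = 0.832).

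The transport kinesins that passed at E18 were Kif21a and Kif1c. Kif21a was at 9.62 and 10.62 in CPN and 8.80 and 7.49 in CSMN, a 3.93-fold lower level in CSMN (-1.97 ± 0.52, adjusted p = 0.0226). It did not pass without CPN E18 replicate 2 (-1.48, adjusted p = 0.153) or CSMN E18 replicate 2 (-1.32, adjusted p = 0.18), and a second of its 3 probe sets was lower too, at -1.73 ± 0.33. Kif1c was at 8.07 and 7.81 in CPN and 6.86 and 6.10 in CSMN (-1.46 ± 0.28, adjusted p = 0.00365), which was not seen in its other 3 probe sets, and the mean of all 4 differed by -0.17 (adjusted p = 0.555).

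After birth the kinesin that separated the neuron types was Kif26a, an atypical kinesin that binds microtubules without moving along them and takes part in growth factor signalling. Its CPN arrays read 9.01 and 9.64 at E18, 7.83 and 7.38 for P3, 6.33 and 6.59 for P6, then 7.03 and 6.74 for P14. Its CSMN arrays read 10.75 and 10.73 at E18, 9.89, 10.01 and 9.70 for P3, 9.24 and 9.01 for P6, then 7.96 and 7.94 for P14, above every CPN array of the same stage. From P6 on its CPN arrays lay at 6.33 to 7.03, close to the array medians, while CSMN at P14 overlapped with CTPN, at 7.57 and 8.13.

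Kif26a was higher in CSMN at E18 by 2.66-fold (1.41 ± 0.25, adjusted p = 0.00172), at P3 by 4.79-fold (2.26 ± 0.23, adjusted p = 2e-04) and at P6 by 6.32-fold (2.66 ± 0.25, adjusted p = 7.02e-05). It was the 1 kinesin of 37 called at P3, against 0.874% of all genes (0.5% higher and 0.374% lower), and at P6, against 1.07% (0.671% higher and 0.401% lower). At P14 limma called 0 of the 37, against 1.39% of all genes (0.445% higher and 0.945% lower), with 4 at an unadjusted p under 0.05. Kif26a, named there after its values were seen, differed by 1.06 (adjusted p = 0.0527). It passed without either CPN E18 array (adjusted p = 0.0355), either CTPN array (adjusted p = 0.0478) or CSMN P14 replicate 1 (adjusted p = 0.016). In the mean of P3, P6 and P14 it was the 1 kinesin called, against 4.11% of all genes (2.08% higher and 2.02% lower), at 1.99 ± 0.14 (adjusted p = 1.2e-06). With array weights Kif26a did not pass at E18 (adjusted p = 0.0571). Kif26a has 1 probe set and was classed with neither transport nor mitosis.

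The P14 comparison of the types depended on the CSMN P14 arrays. Without CSMN P14 replicate 1 it called 12 kinesins and 34.4% of all genes, among them Kif23 at 1.59 (adjusted p = 0.000802) and Kif11 at -0.93 (adjusted p = 0.0158), and without replicate 2 it called Kif5a alone among kinesins, at 1.004 (adjusted p = 0.0464), and 1.79% of all genes. Kif23 was at 6.97 on replicate 1 and 8.59 on replicate 2, and Kif11 at 6.10 and 5.04. Kif5a was at 12.77 and 11.80. In the CPN P14 arrays they were at 6.99 and 7.02, 5.83 and 6.11, and 11.70 and 11.83, so the 2 types overlapped for all 3. The mean of P3, P6 and P14 called 8 kinesins (17% of all genes) without replicate 1 and 2 kinesins, Kif26a and Kif5a (6.99% of all genes), without replicate 2.

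The other kinesins followed for every comparison did not pass between the types after birth. In the mean of P3, P6 and P14 the differences were 0.28 ± 0.15 for Kif5a (adjusted p = 0.46), -0.22 ± 0.10 for Kif5c (adjusted p = 0.339) and -0.08 ± 0.13 for Kif1a (adjusted p = 0.839). Those of Kif3a and Kif2a were 0.42 ± 0.19 (adjusted p = 0.32) and 0.10 ± 0.14 (adjusted p = 0.822). The mitotic kinesins Kif11, Kif20b and Kif23 differed by -0.09 ± 0.17, 0.11 ± 0.11 and 0.20 ± 0.21 (adjusted p = 0.859, 0.745 and 0.745), and 0 of 12 mitotic kinesins passed, with 0 at an unadjusted p under 0.05. At the single postnatal stages these 8 kinesins also did not pass, with adjusted p of 0.353 or more.

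**Figure D4:**
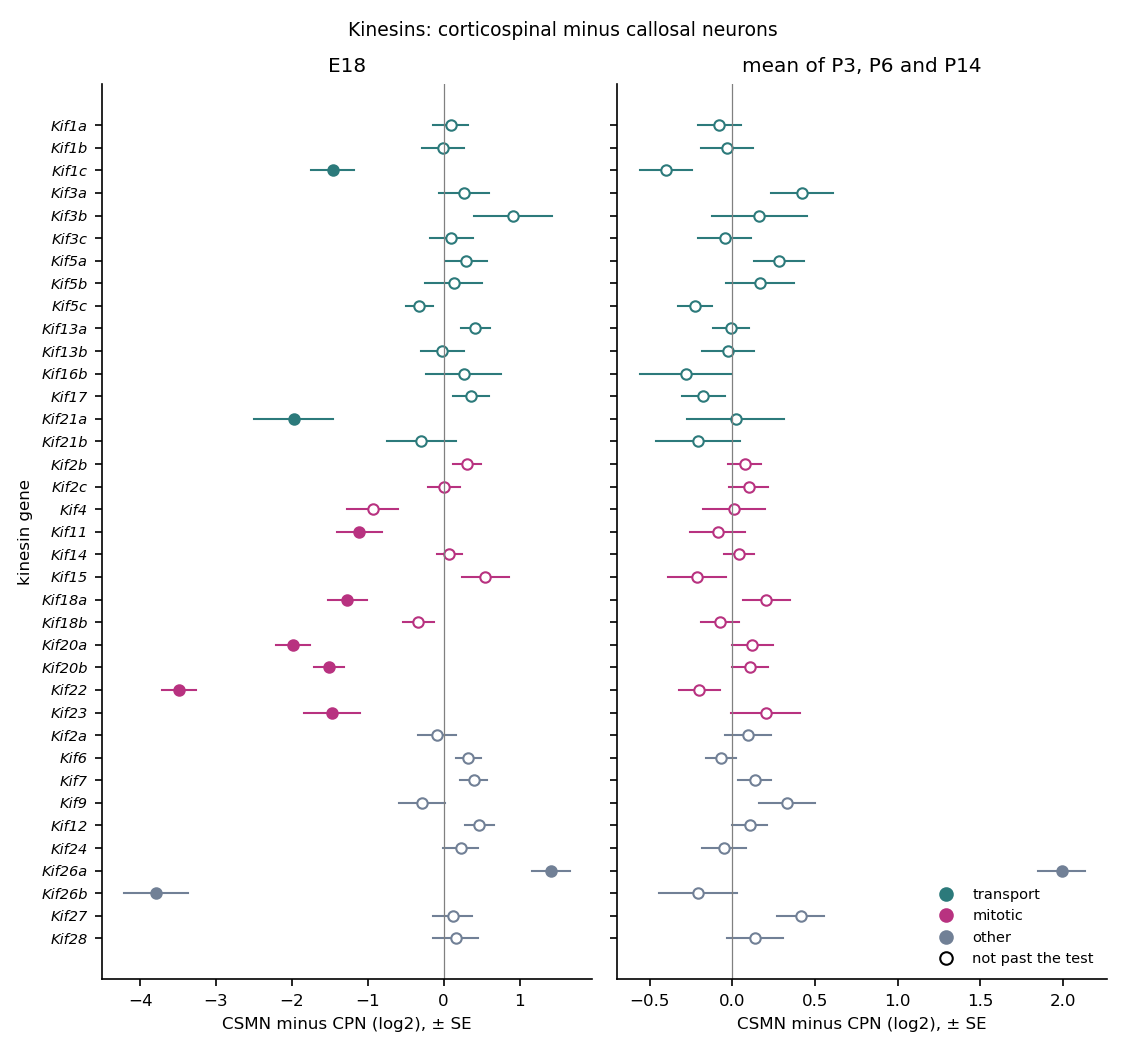
Log2 difference, CSMN minus CPN, ± SE of the model for each of 37 kinesins (vertical axis, by class), at E18 and as the mean of P3, P6 and P14; filled points passed the test. At E18 the filled points are Kif26a to the right and 9 kinesins to the left, 6 of them mitotic, and after birth Kif26a is the 1 filled point.

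Whether the type difference itself changed between E18 and the postnatal stages was tested as an interaction. It passed for 6 kinesins, all with a more negative difference at E18, against 8.15% of all genes, 2.03% with a more positive and 6.12% with a more negative one (24.9% of the calls more positive, and 41.5% after quantile normalization). These were Kif26b (-3.58 ± 0.48, adjusted p = 0.000273), Kif22 (-3.28 ± 0.25, adjusted p = 2.26e-06), Kif20a (-2.11 ± 0.25, adjusted p = 9.35e-05), Kif23 (-1.67 ± 0.43, adjusted p = 0.0261), Kif20b (-1.62 ± 0.22, adjusted p = 0.000329) and Kif18a (-1.48 ± 0.30, adjusted p = 0.00594). Kif11 did not pass (-1.02 ± 0.34, adjusted p = 0.0823), nor did Kif5a, Kif5c, Kif1a, Kif3a and Kif2a, whose values lay between -0.19 and 0.17. Of 12 mitotic kinesins 5 passed, and of 15 transport kinesins 0, with 2 at an unadjusted p under 0.05 and the smallest adjusted p, 0.0541, in Kif21a. Without CSMN P14 replicate 1 or 2 the test called 11 kinesins, and 13.2% or 18.1% of all genes, with Kif21a, Kif11, Kif4 and Kif1c among the 11 both times. Kif18a did not pass without CPN E18 replicate 1 (adjusted p = 0.0531), and Kif23 without any 1 of CPN E18 replicate 2, CPN P3 replicate 2, either CSMN E18 array or CSMN P6 replicate 1.

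Kif26b, a relative of Kif26a that acts in cell polarity and adhesion, had the largest difference of the family at E18. It was at 9.57 and 9.28 in CPN and 6.10 and 5.18 in CSMN, a 13.8-fold lower level (-3.78 ± 0.42, adjusted p = 2.81e-05). Its CPN arrays stood lower at each later stage, with 7.90 and 7.77 for P3, 6.84 and 6.80 for P6, then 6.18 and 6.00 for P14. In CSMN it read 6.90, 7.54 and 6.90 for P3, 7.17 and 7.07 for P6, then 6.75 and 5.03 for P14, and the CTPN arrays were at 6.50 and 6.38. The types thus lay apart at E18 and overlapped at P14. Kif26b has 1 probe set, and its promoter held both motifs.

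**Figure D5:**
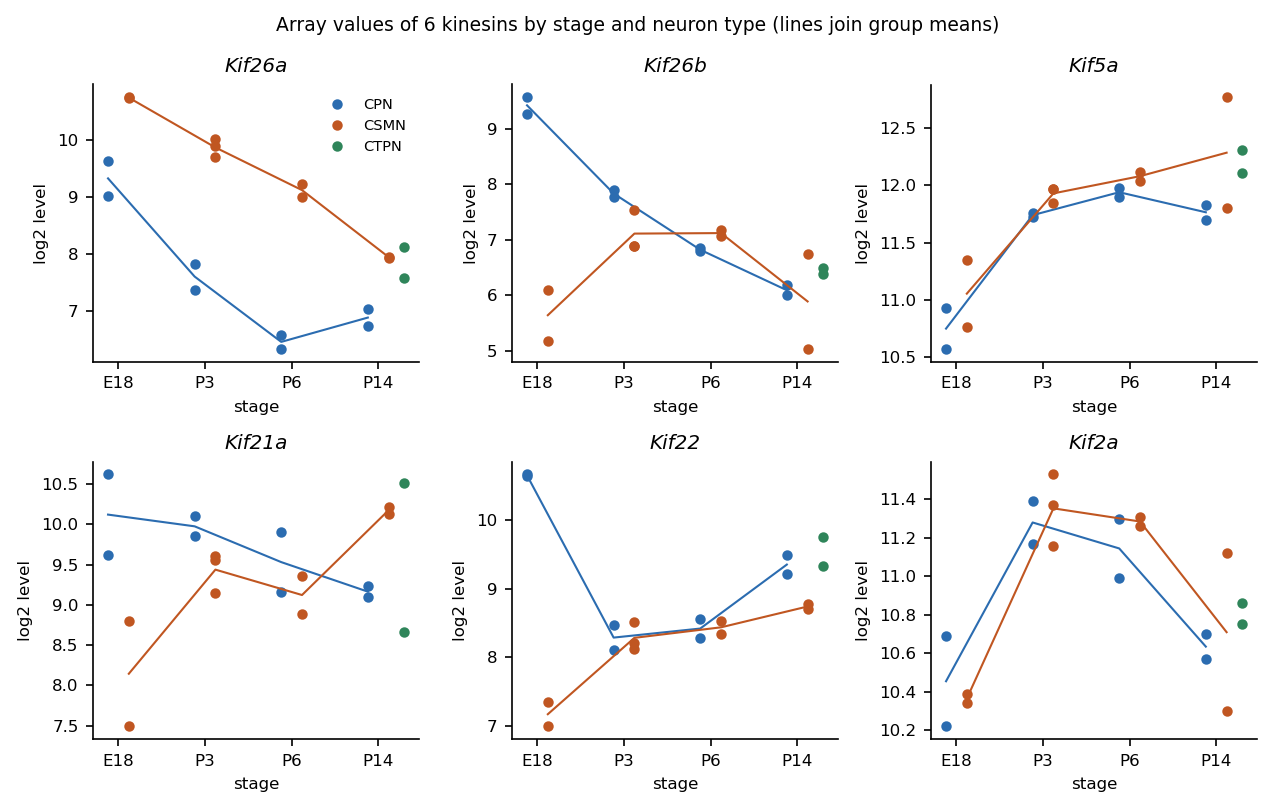
Log2 level on each array (vertical axis, not starting at 0) of Kif26a, Kif26b, Kif5a, Kif21a, Kif22 and Kif2a by stage (horizontal axis) in CPN, CSMN and CTPN; lines join group means. Kif26a is higher in CSMN at all 4 stages, Kif5a is lowest at E18 in both types, and Kif2a is highest at P3 and P6.

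The next question was how kinesins changed as the neurons matured from E18 to P14. In CPN 12 of the 37 kinesins changed, 2 higher and 10 lower at P14, against 19.2% of all genes (10.2% higher and 8.98% lower). The lower ones were 7 of 12 mitotic kinesins, with a class median of -1.30, and Kif1c, Kif26a and Kif26b. The higher ones were the transport kinesins Kif5a and Kif17, and the class median of the 15 transport kinesins was 0.11, against 0.03 over all genes.

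Kif26b fell by 3.33 on the log2 scale in CPN (adjusted p = 4.46e-05) and Kif26a fell by 2.44 (adjusted p = 6.16e-06), with SEs of 0.42 and 0.25. Kif23 was at 6.99 and 7.02 at P14 (-1.96 ± 0.37, adjusted p = 0.00144) and Kif20a at 4.37 and 4.51 (-1.87 ± 0.22, adjusted p = 2.48e-05). Kif11 was at 5.83 and 6.11 at P14 (-1.66 ± 0.30, adjusted p = 0.000882) and Kif20b at 4.85 and 4.96 (-1.57 ± 0.20, adjusted p = 4.03e-05). At P14 Kif11, Kif20a and Kif20b were thus below the array medians. Kif1c differed by -1.60 ± 0.28 (adjusted p = 0.000893) and Kif4 by -1.31 ± 0.34 (adjusted p = 0.0118). Kif18a and Kif22 were the other 2 that fell.

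Of the kinesins that were higher at P14 in CPN, Kif5a was at 10.93 and 10.57 at E18 and 11.70 and 11.83 at P14 (1.01 ± 0.27, adjusted p = 0.015). Kif17, a motor that carries NMDA receptor subunits into dendrites, was at 7.69 and 7.68 at E18 and 8.65 and 8.85 at P14 (1.07 ± 0.23, adjusted p = 0.00416). Both CPN E18 arrays were below all 17 others for the Kif17 probe set used, which holds for 4.25% of all genes. Kif17 was the 1 kinesin of 37 with this pattern, a count not above that share. Its other 2 probe sets did not show the pattern. They changed with the same sign in CPN but did not pass. The values were 0.20 ± 0.18 for Kif5c (adjusted p = 0.584), 0.08 ± 0.23 for Kif1a (adjusted p = 0.898), 0.01 ± 0.33 for Kif3a (adjusted p = 0.995) and 0.18 ± 0.25 for Kif2a (adjusted p = 0.756), and none of these passed. Kif5a did not pass without CPN E18 replicate 2 or either CPN P14 array (adjusted p = 0.135, 0.0619 and 0.102), nor did Kif4 without each of the same arrays (adjusted p = 0.0937, 0.0827 and 0.0531). When a gene's probe sets were averaged, Kif5a, Kif23 and Kif1c did not pass (adjusted p = 0.137, 0.0501 and 0.0839).

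In CSMN 6 of the 37 kinesins changed from E18 to P14, 3 higher and 3 lower, against 15.1% of all genes (9.27% higher and 5.85% lower). The kinesin count was thus near the share over all genes. Kif5a, the heavy chain mutated in a form of hereditary spastic paraplegia, was at 11.35 and 10.76 at E18, 11.97, 11.97 and 11.85 for P3, 12.04 and 12.12 for P6, then 12.77 and 11.80 for P14 (1.23 ± 0.27, adjusted p = 0.00666). All 4 E18 arrays of both types lay below all 15 later arrays for Kif5a, which holds for 3.14% of all genes. It was the 1 kinesin of 37 with this pattern, a count near that share. Kif21a was at 8.80 and 7.49 at E18 and 10.22 and 10.13 at P14 (2.03 ± 0.52, adjusted p = 0.0169). Its other 2 probe sets did not pass, with CSMN group means of 7.15 and 5.95 at E18 and 7.48 and 5.98 at P14. The other 2 probe sets of Kif5a did not pass either. Kif22 was at 6.99 and 7.35 at E18 and 8.78 and 8.70 at P14 (1.57 ± 0.22, adjusted p = 0.000246) in its brightest probe set, but its other 2 probe sets did not pass (0.86 ± 0.31 and 0.50 ± 0.37).

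The lower kinesins in CSMN at P14 were Kif26a (-2.79 ± 0.25, adjusted p = 5.02e-06), Kif11 (-0.96 ± 0.30, adjusted p = 0.0422) and Kif7, a regulator of hedgehog signalling in the primary cilium (-0.56 ± 0.18, adjusted p = 0.0442). For the Kif11 probe set used, all 4 E18 arrays of both types lay above all 15 later arrays, which holds for 0.418% of all genes. The other 2 probe sets of Kif11 did not show this pattern. Neither passed for the change in CSMN, and 1 of them had the opposite sign. In the mean of all its probe sets Kif11 differed by -0.34 (limma adjusted p = 0.116). The other kinesins followed were Kif5c (0.44 ± 0.18, adjusted p = 0.126), Kif3a (0.44 ± 0.33, adjusted p = 0.421), Kif1a (0.22 ± 0.23, adjusted p = 0.589) and Kif2a (0.35 ± 0.25, adjusted p = 0.399). Kif20b (0.09 ± 0.20, adjusted p = 0.805) and Kif23 (0.28 ± 0.37, adjusted p = 0.668) did not pass either. The class medians were -0.01 for mitotic and 0.21 for transport kinesins.

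The CSMN result depended on the arrays. It called 2 kinesins without CSMN E18 replicate 2, Kif22 and Kif26a, with 9.73% of all genes. It called 13 without CSMN P14 replicate 1 and 14 without CSMN P14 replicate 2, with 27.3% and 25.1% of all genes. With array weights, or with the CSMN E18 and P14 arrays alone, Kif26a passed and Kif5a, Kif21a, Kif22, Kif11 and Kif7 did not (adjusted p = 0.183 to 0.735 and 0.0901 to 0.861). When probe sets ending in _s_at or _x_at were left out, Kif22 did not pass either (0.86, adjusted p = 0.0794). Without CSMN P14 replicate 2, Kif5a differed by 1.71 (adjusted p = 0.000179), Kif5c by 0.70 (adjusted p = 0.00976) and Kif2a by 0.76 (adjusted p = 0.029), and Kif11 did not pass (-0.43, adjusted p = 0.234). Without CSMN E18 replicate 2, Kif5a and Kif21a did not pass (adjusted p = 0.0741 and 0.172). Kif11 passed at -1.48 without CSMN P14 replicate 1 (adjusted p = 0.00127), but it and Kif7 did not pass when 16 and 14 of the 19 arrays, respectively, were left out in turn, with adjusted p of 0.0513 to 0.234 and 0.0527 to 0.119.

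The change with age differed between the types for 7 kinesins, each with a more positive value in CSMN, against 5.18% of all genes, 3.53% more positive and 1.65% more negative (68.2% of the calls more positive, and 53.5% after quantile normalization). They were Kif26b (3.58 ± 0.60, adjusted p = 0.0023), Kif21a (2.98 ± 0.74, adjusted p = 0.03), Kif22 (2.87 ± 0.31, adjusted p = 8.64e-05), Kif23 (2.25 ± 0.53, adjusted p = 0.0225), Kif20a (2.22 ± 0.31, adjusted p = 0.000627), Kif20b (1.66 ± 0.28, adjusted p = 0.00234) and Kif1c (1.54 ± 0.40, adjusted p = 0.0388). The values for Kif11, Kif3a, Kif5c, Kif5a, Kif2a and Kif1a were 0.71, 0.43, 0.24, 0.22, 0.17 and 0.13, with adjusted p of 0.389 or more. None of the other probe sets of Kif21a, Kif23, Kif20b and Kif1c passed here, while the 2 others of Kif22 did. This test uses the same E18 and P14 arrays as the comparisons above and is not independent of them. It called 15 kinesins and 19.8% of all genes without CSMN P14 replicate 1, and 4 kinesins and 3.18% or 2.49% of all genes without CPN P14 replicate 1 or 2, when Kif26b, Kif22, Kif20a and Kif20b passed. With P3 in place of E18, an alternative chosen after the data were seen, limma called 0 kinesins (3 at an unadjusted p under 0.05) and 0.115% of all genes. The comparison within CPN then called 2 kinesins and 8.13% of all genes.

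Between P3 and P14, taken as the mean of both types and without E18 arrays, 4 kinesins changed, 1 higher and 3 lower, against 17.8% of all genes (7.98% higher and 9.82% lower). Kif26b differed by -1.48 ± 0.29 (adjusted p = 0.00199) and Kif26a by -1.32 ± 0.17 (adjusted p = 7.55e-05). Kif2a, a microtubule depolymerase that limits the growth of axon branches, was at 11.16 to 11.53 on the 5 P3 arrays and 10.30 to 11.12 on the 4 P14 arrays (-0.64 ± 0.17, adjusted p = 0.0155). Kif22 was higher (0.76 ± 0.15, adjusted p = 0.00234), and its other 2 probe sets did not pass (0.36 ± 0.21 and 0.33 ± 0.25). The groups of P3 and P14 arrays did not overlap for Kif2a, which adds no support to the test on the same arrays. Its E18 arrays were at 10.22 to 10.69, so that its group means were highest at P3 and P6 in the probe set used. Of its 4 other probe sets 3 had the same sign from P3 to P14, and 0 passed.

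The transport kinesins followed in this comparison did not pass: Kif5a differed by 0.19 ± 0.18 (adjusted p = 0.543), Kif5c by -0.27 ± 0.12 (adjusted p = 0.173), Kif1a by 0.29 ± 0.16 (adjusted p = 0.256) and Kif3a by -0.39 ± 0.23 (adjusted p = 0.29). Of the mitotic kinesins Kif11 differed by -0.32 ± 0.20, Kif20b by 0.14 ± 0.13 and Kif23 by 0.31 ± 0.25 (adjusted p = 0.341, 0.53 and 0.468). The class medians were -0.27 for transport and 0.14 for mitotic kinesins, against 0.06 over all genes. Without CSMN P14 replicate 1 the comparison called 15 kinesins and 39.3% of all genes. Kif2a did not pass without CPN P14 replicate 1, CPN P3 replicate 2 or CSMN P14 replicate 2 (adjusted p = 0.0651, 0.0746 and 0.0502).

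At P14 the kinesins of CTPN were also compared with both other types. Limma called 0 of 37 against CSMN, where 0.192% of all genes were called (0.137% higher and 0.055% lower) and 1 kinesin had an unadjusted p under 0.05, Kif22 (adjusted p = 0.276). It called 0 of 37 against CPN, where 1.06% of all genes were called (0.456% higher and 0.605% lower) and 2 kinesins had an unadjusted p under 0.05. Against CPN the smallest adjusted p was that of Kif26a, 0.105, with CTPN arrays at 7.57 and 8.13 and CPN arrays at 7.03 and 6.74. Kif3a was at 10.05 and 11.15 in CTPN and 9.70 and 9.61 in CPN (0.95 ± 0.33, adjusted p = 0.369). Against CSMN, Kif5a differed by -0.08 ± 0.27, Kif5c by 0.15 ± 0.18, Kif1a by -0.35 ± 0.23, Kif3a by 0.24 ± 0.33 and Kif2a by 0.09 ± 0.25. Kif11, Kif20b and Kif23 differed by 0.45 ± 0.30, -0.25 ± 0.20 and -0.68 ± 0.37, and all 8 had adjusted p of 0.593 or more. Against CPN the same 8 had adjusted p of 0.369 or more. Without CSMN P14 replicate 1 the comparison with CSMN called 12 kinesins and 28.3% of all genes.

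Partners of the transport motors were taken from lists of kinesin light chains and adaptors (17 measured) and of dynein and dynactin, the motor that runs the other way along microtubules (26 measured). In CPN from E18 to P14, 4 adaptors were higher and 1 lower, and 5 dynein and dynactin genes were higher and 4 lower, against 10.2% and 8.98% of all genes. In CSMN 3 adaptors were higher, and 3 dynein and dynactin genes were higher and 1 lower, against 9.27% and 5.85%. The counts of the dynein list in CSMN were near the share over all genes. Klc1, the light chain of conventional kinesin, differed by 1.31 ± 0.32 in CPN (adjusted p = 0.00867) and 0.84 ± 0.32 in CSMN (adjusted p = 0.0922). Apba1, an adaptor that links Kif17 to its receptor cargo, was higher at P14 in both types, by 1.42 ± 0.38 and 1.32 ± 0.38 (adjusted p = 0.0152 and 0.0295). Dynlt3, a dynein light chain, was higher in both types too, by 1.58 ± 0.31 and 1.66 ± 0.31 (adjusted p = 0.00202 and 0.00249). In CSMN the dynein regulators Ndel1 and Pafah1b1 were higher by 1.22 ± 0.33 and 1.08 ± 0.28 (adjusted p = 0.0233 and 0.0193). Between the types at E18, 1 of 17 adaptors and 3 of 26 dynein and dynactin genes were lower in CSMN, against 8.94% of all genes and so near that share, among them Nde1, a dynein regulator of dividing progenitors (-2.75 ± 0.41, adjusted p = 0.000376).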

How the data were processed

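RNA from sorted neurons was isolated with a StrataPrep kit and amplified by rounds of in vitro transcription before hybridization, per the labels' protocols, and such amplification can alter the relative level of transcripts. The deposited table holds log2 values of 45101 probe sets on 19 arrays, made by the authors with RMA per the submitters' processing notes, with no version named. Control probe sets (64) and probe sets with several symbols or none were left out, which left 34945 probe sets, and each gene took its brightest probe set. No detection calls were used. Precision is limited by how many arrays each group has. Sample columns that were not used numbered 0.

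A linear model with 9 group means was fitted to all 18193 genes with limma 3.58.1 in R 4.3.3 (10 residual and 4.46 prior degrees of freedom), and p-values were adjusted by Benjamini-Hochberg within each of 12 comparisons. The threshold was 0.05. The pipeline was tested on simulated data. Figures were drawn with matplotlib 3.10.9 in Python 3.11.15. In each comparison the kinesins past the test were named, at most 8 per direction by size, with 8 kinesins always given (Kif5a, Kif5c, Kif1a, Kif3a, Kif2a, Kif11, Kif20b and Kif23). From each other list at most 4 members past the test were named, and defining markers. Members and lists were chosen with earlier results of these data known. Alternatives were quantile normalization, the mean of all probe sets, leaving out probe sets with suffixes _s_at or _x_at, genes above the median brightness, array weights, an intensity trend, a fit on the groups compared alone, a replicate block and leaving out each array. The promoters came from RefSeq, and all 37 symbols had a RefSeq entry.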

Additional observations from a re-analysis of the deposited data

Results flagged for a closer look

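Differences between groups were tested for 2 contrasts. The difference between CSMN and CPN at E18, less its mean over P3, P6 and P14, passed for Kif26b (-3.58), Kif22 (-3.285), Kif20a (-2.11), Kif23 (-1.67), Kif20b (-1.62) and Kif18a (-1.48), with limma adjusted p of 2.26e-06 to 0.0261. The change from E18 to P14 in CSMN, less that in CPN, passed for Kif26b (3.58), Kif21a (2.98), Kif22 (2.87), Kif23 (2.25), Kif20a (2.22), Kif20b (1.66) and Kif1c (1.54), with adjusted p of 8.64e-05 to 0.0388. Both contrasts use the CPN E18 arrays, on which the progenitor and cell cycle lists stood above all 17 other arrays, and the part of those cells in the differences was not tested. No group had more than 3 arrays, so single arrays were not tested as outliers.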

How the results depend on the processing

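Of 46 called kinesin values, 45 kept the call under quantile normalization and under an intensity trend, 44 without probe sets ending in _s_at or _x_at and with a replicate block, 34 with array weights and with the mean of all probe sets, and 30 in fits on the groups compared alone. Leaving out 1 array kept 797 of 874. The losses under an intensity trend and quantile normalization were Kif7 and Kif11, both from E18 to P14 in CSMN (adjusted p = 0.0548 and 0.0717). Those without the suffixed probe sets were Kif22 from E18 to P14 in CSMN (0.86, adjusted p = 0.0794) and from P3 to P14 (0.36, adjusted p = 0.305). None of these changed the sign of a called value.

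Counts of called kinesins moved as follows. Among the 17 kinesins above the median brightness they were 3 between the types at E18, 2 for that difference less the postnatal mean, 4 from E18 to P14 in CPN and 2 for the age difference between types. With the mean of all probe sets they were 1 between the types at P14 and 9 from P3 to P14. With array weights they were 4 at P3, 1 from E18 to P14 in CSMN, 3 for the age difference between types and 1 for CTPN against CPN. With only the groups compared they were 6 at E18, 2 at P3, 1 from E18 to P14 in CSMN and 1 for the age difference between types. With P3 in place of E18, chosen after seeing the data, they were 2 in CPN, 1 in CSMN and 0 for the age difference between types (3 at an unadjusted p under 0.05), against 8.13%, 12.6% and 0.115% of all genes, and the values of Kif20b in CPN (0.14, adjusted p = 0.929) and Kif22 in the age difference (-0.61, adjusted p = 0.557) reversed.

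Leaving out 1 array gave 7 to 11 called kinesins between the types at E18, 1 to 1 at P3 and P6, 0 to 12 at P14, 1 to 8 in the postnatal mean and 5 to 11 for E18 less that mean. It gave 10 to 13 from E18 to P14 in CPN, 2 to 14 in CSMN, 4 to 15 for the age difference between types and 3 to 15 from P3 to P14. It gave 0 to 12 for CTPN against CSMN and 0 to 0 against CPN. The highest counts came mostly from leaving out a CSMN P14 array. Counts below those of all arrays came mostly from leaving out an E18 or a CPN array. Where 1 of a pair is left out the remaining array is assumed to vary like the other groups.

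Values that did not pass changed sign in 17 of 82 cases with the mean of all probe sets, 9 of 82 with quantile normalization and 1 of 82 with the replicate block. Replicate numbers are not stated to pair arrays. Same-numbered arrays deviated together in 14 of 36 pairs of groups at a correlation over 0.1 (range -0.308 to 0.593). In groups of 2 arrays the deviations of replicates 1 and 2 mirror each other, so they are not separate checks. These correlations do not decide whether the numbers pair arrays. A pairing was not assumed, and the replicate block is given as an alternative. With the replicate block Kif7 from E18 to P14 in CSMN (-0.56, adjusted p = 0.0518) and Kif1c in the age difference (1.54, adjusted p = 0.0563) did not pass, and no other call was lost. Differences between low levels can be understated.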

Other observations

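Motors of the kinesin family whose symbols do not begin with Kif and a digit were read in the same way (6 measured). Cenpe, the kinetochore kinesin that moves chromosomes to the spindle equator, was lower in CSMN than in CPN at E18 (-2.13 ± 0.21, limma adjusted p = 8.24e-06) and lower at P14 than at E18 in CPN (-2.45 ± 0.21, adjusted p = 1.05e-06). In CSMN it differed by -0.07 ± 0.21 from E18 to P14 (adjusted p = 0.864), and the age difference between the types passed, at 2.38. Kifc2, a motor of the minus-end-directed kinesin family that is found in neurons, was higher at P14 than at E18 in CPN (2.71 ± 0.38, adjusted p = 0.000127) and in CSMN (1.88 ± 0.38, adjusted p = 0.00416). It was also higher at P14 than at P3 in the mean of both types (1.46 ± 0.26, adjusted p = 0.0011). Stard9, a centrosomal kinesin, was lower at P14 than at E18 in CSMN (-0.89 ± 0.27, adjusted p = 0.0405). It differed by -0.18 ± 0.27 in CPN (adjusted p = 0.779). Kifc1, Kifc3 and Kifc5b did not pass in these comparisons.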
